A study of Homo sapiens with 30 samples.

Results

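The genes described here are 33 genes of the NRF2 antioxidant and detoxification programme, followed in A549 cells, a human lung adenocarcinoma line, across vehicle and every extract and dose. They were chosen by name, as the rows of the deposited count table whose Ensembl identifier maps to one of the listed symbols, with no rule on their values. That list was set with earlier results of these data known. All 33 were found among 60675 identifiers, and all 33 passed the filter on low counts that left 17459 genes for testing. Each of the 30 RNA-seq libraries came from cells kept for 24 hr in an extract of a herbal decoction or in vehicle, and the labels of the libraries give 0.1% DMSO as the vehicle while the design text names 2%. The decoctions were extracted in 70% ethanol. The groups were Soshiho-tang at 20, 100 and 500 µg/mL (3 libraries per dose), Yijin-tang at 20, 100 and 500 µg/mL (3 per dose), Okbyeongpung-san at 20, 100 and 500 µg/mL (2 per dose, numbered replicates 2 and 3), Soyo-san at 20, 100 and 500 µg/mL (1 per dose) and vehicle (3 libraries). A549 is a single established line, so all groups share its genotype.

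NRF2, encoded by NFE2L2, is a transcription factor that pairs with small MAF proteins such as MAFG and switches on genes for glutathione and thioredoxin chemistry, NADPH supply, quinone reduction, conjugation and export. In unstressed cells KEAP1 binds NRF2 and hands it to a CUL3 ubiquitin ligase for destruction, and electrophiles or oxidants that modify KEAP1 let NRF2 accumulate. A549 cells carry a mutated KEAP1 and are widely used as a line with constitutively high NRF2 activity.

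The libraries held between 24560758 and 38008449 counts in the 27 extract libraries and between 19833106 and 22327632 in the 3 vehicle libraries. The 13 mitochondrial mRNAs took 6.22 to 9.89% of the counts in the extract libraries and 10.7% ± 0.205 (SD, n = 3; 10.502 to 10.86%) in the vehicle libraries, so that depth and mitochondrial share both separate vehicle from every extract. Both libraries of Okbyeongpung-san at 500 µg/mL stood apart from each other. Between their counts, chi-square divided by its degrees of freedom was 42.3. The pairs of vehicle libraries had the lowest values of this ratio, 2.07 to 2.21. Other extract pairs ran from 2.81 (Okbyeongpung-san at 20 µg/mL) to 19.24 (Yijin-tang at 20 µg/mL, replicates 2 and 3). The mitochondrial share of the Okbyeongpung-san libraries at 500 µg/mL was 9.89% for replicate 2 and 6.73% for replicate 3. The sample titles carry a letter whose meaning the labels do not state. It was D in 6 libraries, namely the 3 of Soyo-san and the Okbyeongpung-san libraries numbered 3, and E in the other 24. All 5 epithelial markers were present, with a summed level of 4710 to 6623 CPM (counts scaled to a common library total) in extract libraries and 6043 to 6290 CPM in vehicle libraries. None of the 5 alveolar type 2 markers averaged 1 CPM or more. The same held for all 3 endothelial markers and all 5 hepatocyte markers, while 2 of 5 immune markers (9.32 to 21.5 CPM summed in extract libraries, 14.9 to 17.4 CPM in vehicle libraries) and 2 of 5 fibroblast markers (21.1 to 37.7 CPM and 34.4 to 37.3 CPM) reached it. CD3E, a T cell marker, was at 0 in every library. Whether replicates came from separate cultures is not in the labels. The tests therefore weigh differences against library-to-library spread that may be technical.

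In what follows a level is in CPM of TMM-adjusted totals, a difference is a log2 fold change with its standard error, and a gene rose or fell where its p from edgeR's quasi-likelihood test, adjusted by Benjamini-Hochberg across the 17459 genes, was below 0.05. Some fits were repeated without a library or under another setting. Counts of members from these refits stand without the share of all genes called, unless that is printed beside them. Such counts do not show a change particular to the members. Per kilobase of longest annotated transcript, the most abundant members in vehicle cells were PGD at 727 CPM per kb, PRDX1 at 698, NQO1 at 513, TXN at 489 and TXNRD1 at 476. The least abundant were UGT1A6 at 0.652 CPM per kb, GSTM3 at 1.80 and CBR3 at 4.33. Together the 33 genes took 1.29 to 1.46% of all counts in extract libraries and 1.27% ± 0.006 (SD, n = 3; 1.26 to 1.27%) in vehicle libraries. Within Soshiho-tang, they took 1.303% ± 0.017 at 500 µg/mL and 1.41% ± 0.023 at 20 µg/mL (SD, n = 3 each).

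Soshiho-tang at 500 µg/mL moved the most members, and most of those it moved were lower. Against vehicle, 16 of 33 members (48.5%) passed the test, 5 higher and 11 lower, beside 33.1% of all genes tested (17.1% higher, 16.0% lower). Against the 20 µg/mL dose of the same extract, a comparison that leaves the vehicle libraries out, 16 members again passed, 2 higher and 14 lower, beside 20.6% of all genes (10.3% higher, 10.2% lower). The median member differed by -0.16 in that dose comparison and 29 of 33 values were below 0, while the median over all genes was 0.00. MAFG and ABCC3 were higher in both comparisons, and GCLC, GSR, GPX2, TKT, PTGR1, EPHX1, ABCC1, CYP4F11 and CYP4F3 were lower in both. The comparisons share the 500 µg/mL libraries. Without vehicle replicate 1, vehicle replicate 3 or Soshiho-tang 500 replicate 2, 10 members were called against vehicle in each case.

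Yijin-tang and Okbyeongpung-san at 500 µg/mL moved fewer members, and most of those passed in the higher direction with all libraries in the fit. With Yijin-tang, 12 members (36.4%) passed against vehicle, 8 higher and 4 lower, beside 15.8% of all genes (8.35% higher, 7.47% lower), and the median member differed by 0.10. With Okbyeongpung-san, 9 members (27.3%) passed, 7 higher and 2 lower, beside 14.9% of all genes (7.11% higher, 7.80% lower), with a median of 0.09. These counts leaned on single libraries, and the share of all genes called in the same refits is not given. For Yijin-tang the counts of members were 7, 5 and 6 without vehicle replicate 1, 2 or 3, 4 without Yijin-tang 500 replicate 1 and 3 without replicate 3. Those last 3 (GSR, CYP4F11 and CYP4F3) were all lower. GSR and CYP4F3, both lower, were the only Yijin-tang calls kept in every fit that left out 1 library, and ABCC3, which was higher, was the only such Okbyeongpung-san call. For Okbyeongpung-san they were 5, 4 and 4 without vehicle replicate 1, 2 or 3, 3 without Okbyeongpung-san 500 replicate 2 and 10 without its replicate 3. Without the Okbyeongpung-san libraries of letter D the count was 8. In a fit of the Okbyeongpung-san 500 and vehicle libraries alone, 0 members and 368 genes passed, against 9 and 2603 in the fit of all groups.

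For Yijin-tang and Okbyeongpung-san no dose difference in these genes reached the threshold. At 500 against 20 µg/mL, edgeR called 0 members for Yijin-tang (2 at an unadjusted p below 0.05) beside 0.710% of all genes (0.292% higher, 0.418% lower), and 0 for Okbyeongpung-san (7 at an unadjusted p below 0.05; DESeq2 called 1, ABCC3) beside 1.61% (1.01% higher, 0.601% lower). Leaving out Yijin-tang 20 replicate 1 gave 1 call, GPX2 at -0.61 (edgeR adjusted p = 0.0459), and leaving out Okbyeongpung-san 500 replicate 3 gave 10, against 3 without all Okbyeongpung-san libraries of letter D. At 100 against 20 µg/mL, 0 members were called by edgeR and by DESeq2 in each of the 3 extracts, beside 0% of all genes for Soshiho-tang, 0.0229% for Yijin-tang (0.0172% higher, 0.00573% lower) and 0% for Okbyeongpung-san; at an unadjusted edgeR p below 0.05 there were 0, 1 and 0.

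All comparisons with vehicle share the same 3 vehicle libraries, which were shallower and richer in mitochondrial mRNA, so a shift common to them all counts once. With mitochondrial genes taken out of the library totals, the calls against vehicle at 500 µg/mL numbered 16 for Soshiho-tang, 12 for Yijin-tang and 10 for Okbyeongpung-san, and the Soshiho-tang dose comparison had 15. Over all 9 comparisons with vehicle, 13 members were above 0 in each and 6 (NFE2L2, GSR, ABCC1, ABCC2, CYP4F11 and CYP4F3) were below 0 in each.

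At the lower doses 4 to 12 members passed against vehicle, with GSTM3, ME1, NQO1 and NR0B1 among the repeated rises and GSR, NFE2L2 and CYP4F3 among the falls. With Soshiho-tang at 20 µg/mL 5 members rose (GSTM3, ME1, NQO1, ABCC3 and NR0B1) and 0 fell, beside 8.04% of all genes (4.05% higher, 3.99% lower). At 100 µg/mL 2 rose (GSTM3 and ABCC3) and 2 fell (GSR and CYP4F3), beside 10.7% (5.58% higher, 5.15% lower). With Yijin-tang at 20 µg/mL 3 rose (GSTM3, ME1 and NQO1) and 2 fell (GSR and CYP4F3), beside 10.2% (5.10% higher, 5.13% lower). At 100 µg/mL 8 rose, led by GSTM3 at 0.45, NR0B1 at 0.38 and TXN at 0.35, and 4 fell, led by CYP4F3 at -0.27, beside 14.7% (7.91% higher, 6.80% lower). With Okbyeongpung-san at 20 µg/mL 4 rose (GSTM3 at 0.50, TXN at 0.42, PRDX1 at 0.29 and ME1 at 0.24) and 2 fell (NFE2L2 at -0.24 and GSR at -0.16), beside 10.2% (5.09% higher, 5.07% lower). At 100 µg/mL 3 rose (GSTM3, TXN and NR0B1) and 1 fell (NFE2L2), beside 9.49% (4.68% higher, 4.81% lower). Without the Okbyeongpung-san libraries of letter D 1 member was called at each of these doses. Single libraries moved these counts, again given without the share of all genes called in the same refit. For Soshiho-tang at 20 µg/mL the count was 1, 1 and 0 without vehicle replicate 1, 2 or 3 and 1, 1 and 2 without its own replicate 1, 2 or 3. At 100 µg/mL it was 2, 1 and 2 without vehicle replicate 1, 2 or 3 and 2, 2 and 9 without its own. For Yijin-tang at 20 µg/mL it was 1, 0 and 1 without vehicle replicate 1, 2 or 3 and 1 without its own replicate 3. At 100 µg/mL it was 6, 4 and 4 without vehicle replicate 1, 2 or 3, 6 without its own replicate 1 and 3 without its replicate 3. For Okbyeongpung-san at 20 µg/mL it was 2 and 3 without vehicle replicate 2 or 3 and 0 without either of its own libraries. At 100 µg/mL it was 1 and 0 without vehicle replicate 1 or 3 and 0 and 1 without its own replicate 2 or 3.

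**Figure D1:**
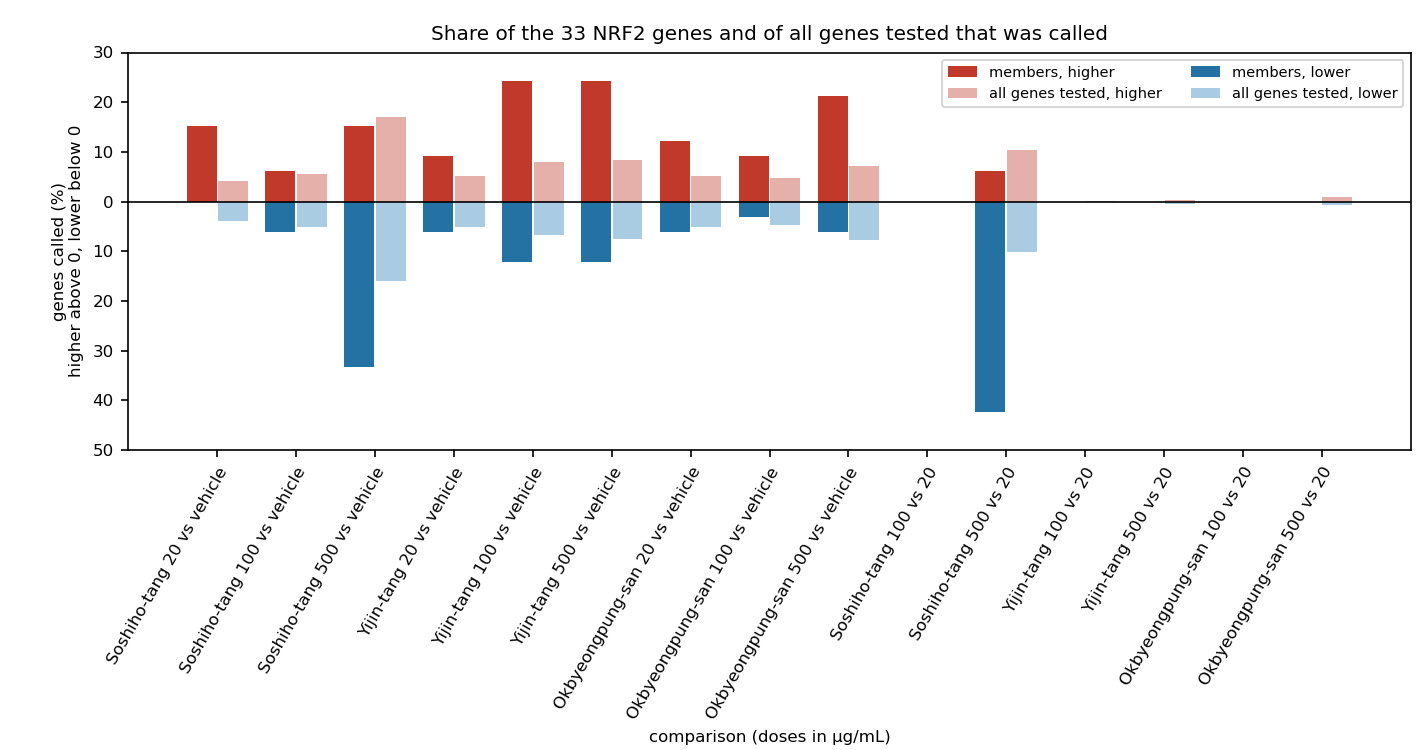
Percent of the 33 members and percent of all 17459 genes tested that passed edgeR's test in each comparison with vehicle and of 100 or 500 with 20 µg/mL, with calls in the higher direction above 0 and calls in the lower direction below 0. Soshiho-tang at 500 against 20 µg/mL has 14 members below and 2 above, and the same dose comparison in Yijin-tang and Okbyeongpung-san has 0.

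**Figure D2:**
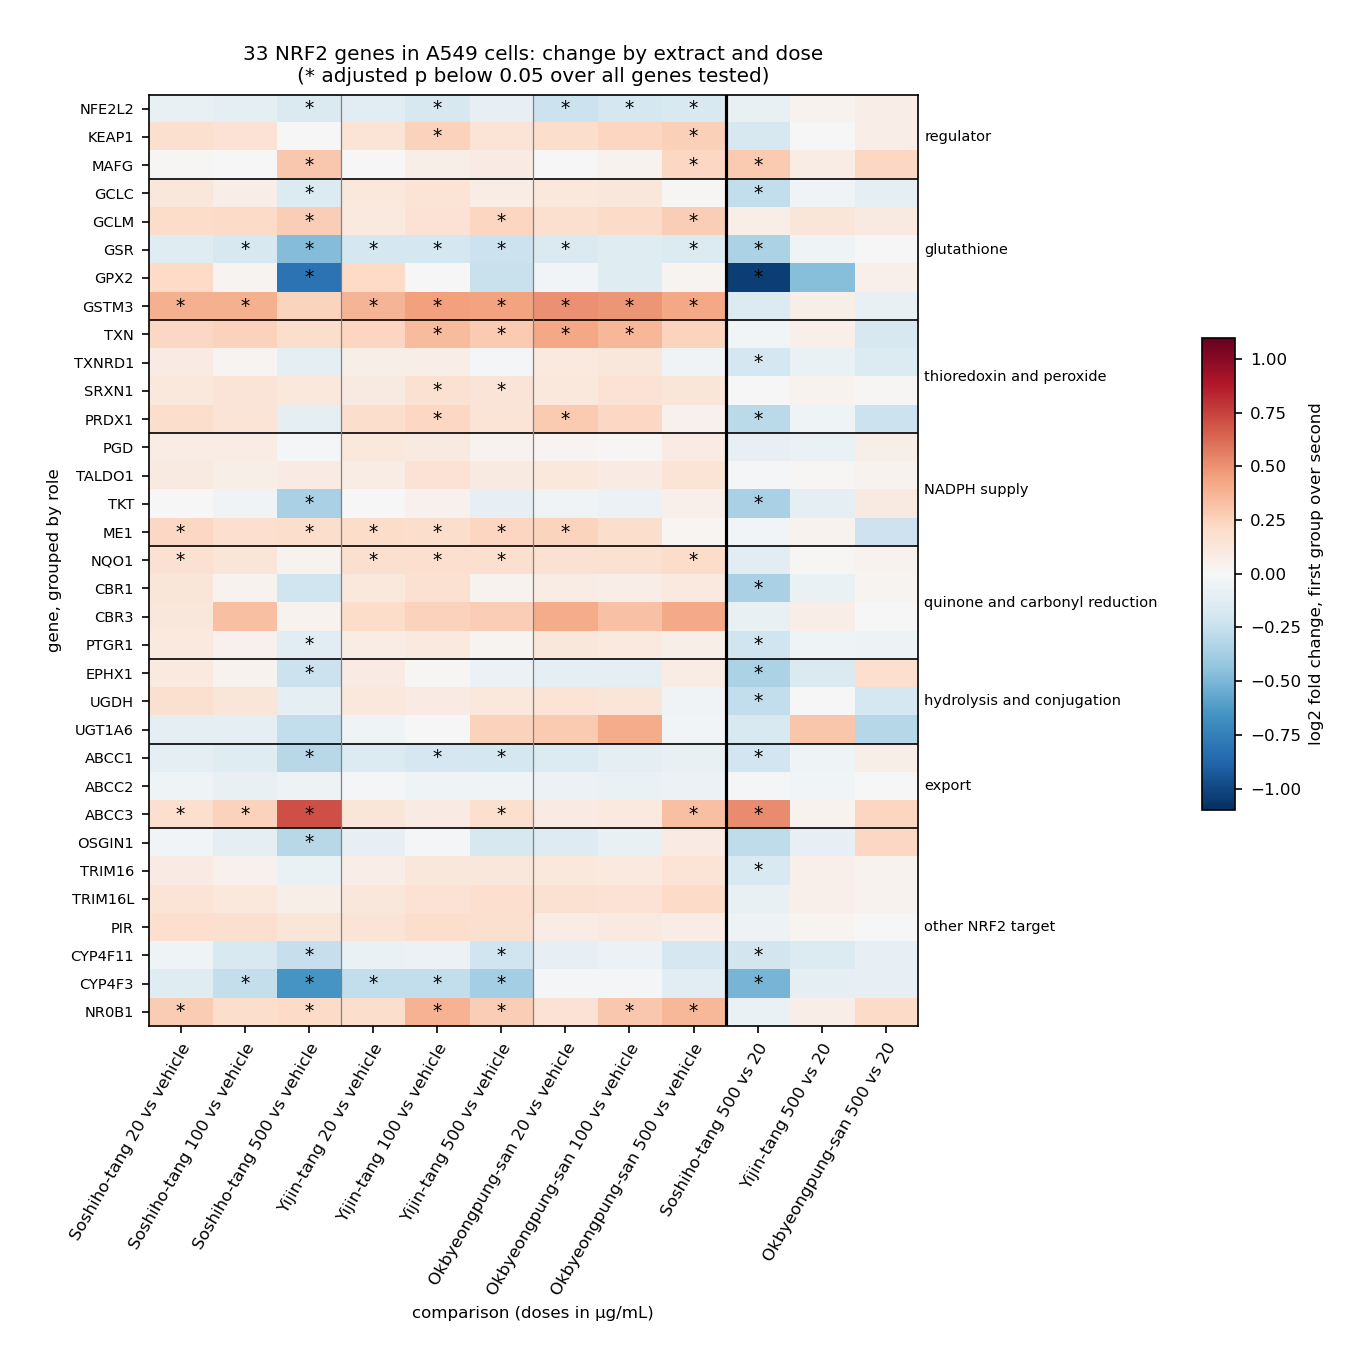
Log2 fold change of each of the 33 genes (rows, by role) in 9 comparisons with vehicle and 3 comparisons of 500 with 20 µg/mL (columns), with an asterisk where the edgeR adjusted p was below 0.05. ABCC3 has the highest value against vehicle at Soshiho-tang 500 (0.71) and GPX2 the lowest (-0.81), and GSTM3 is above 0 in all 9 comparisons with vehicle.

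NRF2 with a small MAF protein binds the antioxidant response element, whose core is usually written TGACNNNGC. Windows around this core are shown because members that carry it moved in different directions with Soshiho-tang at 500 µg/mL against vehicle. RefSeq promoters (GRCh38.p14), each covering 250 bases before and 50 after an annotated start, were given for 27 members. The 9 letters, or their reverse complement GCNNNGTCA, were found in 11 of the 27 (40.7%), against 16.1% of all 27305 symbols with a promoter. The sequences below run 5′ to 3′ on the strand of the gene, with the core or its reverse complement in capitals and 20 bases on each side. They lie at chr14:64942839-64942887 (GPX2, minus strand), chr1:93909436-93909484 (GCLM, minus), chr6:83431160-83431208 (ME1, minus), chr12:104215660-104215708 (TXNRD1, plus), chr19:10502774-10502822 (KEAP1, minus) and chr19:15934995-15935043 (CYP4F11, minus).
GPX2: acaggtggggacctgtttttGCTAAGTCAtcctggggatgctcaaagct
GCLM: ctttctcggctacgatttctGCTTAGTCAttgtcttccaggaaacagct
ME1: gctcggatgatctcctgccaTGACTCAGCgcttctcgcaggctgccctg
TXNRD1: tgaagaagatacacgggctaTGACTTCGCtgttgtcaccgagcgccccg
KEAP1: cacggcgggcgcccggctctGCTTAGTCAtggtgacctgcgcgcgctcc
CYP4F11: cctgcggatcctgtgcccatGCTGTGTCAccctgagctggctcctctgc
Of the 11 genes with the core, 2 rose (GCLM and ME1) and 3 fell (GPX2, EPHX1 and CYP4F11) with Soshiho-tang at 500 µg/mL against vehicle. Among the 16 with a promoter and no match, 2 rose and 6 fell, beside 17.1% higher and 16.0% lower over all genes tested. At 500 against 20 µg/mL, 0 of the 11 rose and 5 fell (GPX2, TXNRD1, CBR1, EPHX1 and CYP4F11), and 1 of the 16 rose and 6 fell. Over all genes tested 10.3% rose and 10.2% fell in that comparison. A match is a run of letters and does not show binding, and no match says only that these letters are not in this window.

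Among the regulators, NFE2L2 mRNA fell against vehicle in 5 of the 9 extract and dose groups tested, KEAP1 mRNA rose in 2 and MAFG mRNA rose in 2. NFE2L2 (ENSG00000116044, GRCh38, chromosome 2, 177227595 to 177392697, minus strand) had 135, 127 and 139 CPM in vehicle libraries. With Soshiho-tang it had 125, 122 and 131 CPM at 20 µg/mL, 119.8, 126 and 127 CPM at 100 µg/mL and 113, 122 and 123 CPM at 500 µg/mL. With Yijin-tang the dose series read 124, 122 and 121 CPM, then 114, 122 and 118 CPM, then 118, 126 and 132 CPM. Okbyeongpung-san gave 110.4 and 116 CPM at 20 µg/mL, 116 and 118 CPM at 100 µg/mL and 118 and 119.6 CPM at 500 µg/mL. The Soshiho-tang and Okbyeongpung-san libraries at 500 µg/mL lay below all 3 vehicle libraries, while those of Yijin-tang overlapped them. NFE2L2 differed from vehicle by -0.16 ± 0.05 with Soshiho-tang at 500 µg/mL (edgeR adjusted p = 0.0153). The Soshiho-tang call was lost without vehicle replicate 1 or 3 or Soshiho-tang 500 replicate 1 (edgeR adjusted p up to 0.0953). Without the filter on low counts the Soshiho-tang call was lost too (-0.14, edgeR adjusted p = 0.154). The Okbyeongpung-san call at 500 µg/mL was lost without vehicle replicate 1 or 3 or either Okbyeongpung-san library (-0.20 to -0.14 over fits that left out 1 library). It was also lost without the filter on low counts, with mitochondrial genes out of the totals and with only the groups compared in the fit.

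KEAP1 (ENSG00000079999, chromosome 19, 10486120 to 10503741, minus strand) had 70.4, 66.4 and 67.0 CPM in vehicle libraries. In Soshiho-tang libraries the levels were 80.8, 78.3 and 70.8 CPM at 20 µg/mL, 84.5, 73.9 and 69.1 CPM at 100 µg/mL and 75.2, 66.0 and 62.7 CPM at 500 µg/mL. At 500 µg/mL these libraries lay on both sides of the vehicle values. With Yijin-tang the series read 74.5, 72.1 and 80.2 CPM, then 79.9, 76.2 and 86.9 CPM, then 81.0, 71.3 and 73.3 CPM. Okbyeongpung-san gave 78.9 and 76.5 CPM at 20 µg/mL, 82.0 and 78.1 CPM at 100 µg/mL and 85.8 and 77.3 CPM at 500 µg/mL. All libraries of both these extracts lay above vehicle. KEAP1 rose with Okbyeongpung-san at 500 µg/mL (0.26, edgeR adjusted p = 0.0396) and with Yijin-tang at 100 µg/mL (0.25), and its difference was 0.00 ± 0.08 with Soshiho-tang at 500 µg/mL. The Okbyeongpung-san call was lost without any 1 of the 3 vehicle libraries or Okbyeongpung-san 500 replicate 2 (edgeR adjusted p up to 0.306), and with the length and GC offset the value was 0.12 (edgeR adjusted p = 0.249). MAFG averaged 149 ± 8.45 CPM with Soshiho-tang at 500 µg/mL, 122 ± 6.76 CPM at 20 µg/mL and 121 ± 1.25 CPM in vehicle (SD, n = 3 each). It rose by 0.30 ± 0.06 against vehicle (edgeR adjusted p = 0.000755) and by 0.29 ± 0.06 against 20 µg/mL (edgeR adjusted p = 0.0015). MAFG also rose with Okbyeongpung-san at 500 µg/mL, where it averaged 143 ± 10.9 CPM (SD, n = 2), by 0.23 against vehicle (edgeR adjusted p = 0.029). That call was lost without any 1 of the 3 vehicle libraries or Okbyeongpung-san 500 replicate 2, the last of which gave 0.15 (edgeR adjusted p = 0.298).

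The 5 glutathione genes moved apart under Soshiho-tang. Against vehicle at 500 µg/mL, 1 rose (GCLM) and 3 fell (GCLC, GSR and GPX2), and against 20 µg/mL 3 fell (the same 3 names) and 0 rose. GCLC and GCLM encode the catalytic and modifier subunits of glutamate-cysteine ligase, the rate-limiting enzyme of glutathione synthesis. GCLM (ENSG00000023909, chromosome 1, 93885205 to 93909456, minus strand) had 232, 213 and 233 CPM in vehicle libraries. The Soshiho-tang series was 268, 244 and 266 CPM at 20 µg/mL, 261, 279 and 245 CPM at 100 µg/mL and 279, 285 and 257 CPM at 500 µg/mL. All of these lay above vehicle. Yijin-tang gave, in the same dose order, 264, 235 and 231 CPM, then 267, 252 and 239 CPM, then 269.6, 257 and 275 CPM. Okbyeongpung-san gave 254 and 257 CPM at 20 µg/mL, 259 and 265 CPM at 100 µg/mL and 241 and 306 CPM at 500 µg/mL. Of these, 1 Yijin-tang library at 20 µg/mL lay within the vehicle range and the others above it. GCLM rose against vehicle by 0.27 ± 0.07 with Soshiho-tang at 500 µg/mL (edgeR adjusted p = 0.00519), by 0.24 with Yijin-tang and by 0.27 with Okbyeongpung-san. The Yijin-tang call was lost without vehicle replicate 2 or Yijin-tang 500 replicate 1 or 3 (edgeR adjusted p up to 0.123). The Okbyeongpung-san value was 0.09 without its replicate 3 at 500 µg/mL (edgeR adjusted p = 0.451), and the call was also lost without vehicle replicate 2 and with a term for the title letter (0.20, edgeR adjusted p = 0.0927). The GCLM dose difference in Soshiho-tang was 0.07 (edgeR adjusted p = 0.52). Over the same doses its partner GCLC averaged 247 ± 10.3 CPM at 500 µg/mL and 299 ± 14.9 CPM at 20 µg/mL (SD, n = 3 each), a difference of -0.27 ± 0.05 (edgeR adjusted p = 0.000417). Vehicle stood between at 274 ± 1.49 CPM, and the call of GCLC against vehicle (-0.15 ± 0.05, edgeR adjusted p = 0.034) was lost without any 1 of 5 of the 6 libraries compared, all but Soshiho-tang 500 replicate 3 (edgeR adjusted p up to 0.128). That call was also lost without the filter on low counts (-0.13, edgeR adjusted p = 0.211).

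GSR encodes glutathione reductase, which returns oxidised glutathione to its reduced form with NADPH. GSR (ENSG00000104687, chromosome 8, 30678061 to 30727999, minus strand) had 394, 431 and 413 CPM in vehicle libraries. With Soshiho-tang it had 371, 377 and 381 CPM at 20 µg/mL, 363, 363 and 367 CPM at 100 µg/mL and 300.4, 294 and 293 CPM at 500 µg/mL. All 3 libraries at 500 µg/mL lay below every other library of the study. With Yijin-tang the series read 371, 364 and 349 CPM, then 361, 373 and 352 CPM, then 337, 349 and 362 CPM. Okbyeongpung-san gave 373 and 366 CPM at 20 µg/mL, 362 and 388 CPM at 100 µg/mL and 375 and 368 CPM at 500 µg/mL. No extract library reached the lowest vehicle library. GSR fell with Soshiho-tang at 500 µg/mL, differing by -0.48 ± 0.04 from vehicle (edgeR adjusted p = 6.99e-09) and by -0.35 ± 0.04 from 20 µg/mL (edgeR adjusted p = 1.51e-06). It also fell against vehicle with Yijin-tang (-0.24) and Okbyeongpung-san (-0.15) at 500 µg/mL, and in 7 of the 9 comparisons with vehicle in all. The Yijin-tang call held in every fit that left out 1 library, and the Okbyeongpung-san call was lost without vehicle replicate 2 or 3 or either Okbyeongpung-san library (edgeR adjusted p up to 0.144) and without the filter on low counts. In bulk RNA, fewer cells that express a gene and less of its RNA per cell cannot be told apart.

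GPX2 encodes a glutathione peroxidase best known from the gut epithelium and was the member whose level spread most, with 2.05 times as much in the highest group (Soshiho-tang 20) as in the lowest (Soshiho-tang 500). GPX2 (ENSG00000176153, chromosome 14, 64939152 to 64942905, minus strand) had 217, 197 and 209 CPM in vehicle libraries. In Soshiho-tang libraries the levels were 209, 250.5 and 266 CPM at 20 µg/mL, 195, 195 and 247 CPM at 100 µg/mL and 109.8, 103 and 141 CPM at 500 µg/mL. These libraries at 500 µg/mL were the lowest of the study, and replicate 3 was the highest of its group at every Soshiho-tang dose. Yijin-tang gave, in the same dose order, 189, 244 and 291 CPM, then 175, 195 and 252 CPM, then 155, 174 and 195 CPM. Okbyeongpung-san gave 203 and 203 CPM at 20 µg/mL, 192 and 186 CPM at 100 µg/mL and 230.3 and 192 CPM at 500 µg/mL. The Yijin-tang libraries at 500 and 20 µg/mL overlapped, with a difference of -0.47 that edgeR did not call in the fit reported. It was called with a replicate block (-0.46, edgeR adjusted p = 0.0442), without the filter on low counts (-0.46) and without Yijin-tang 20 replicate 1 (-0.61). GPX2 fell with Soshiho-tang at 500 µg/mL, differing by -0.81 ± 0.15 from vehicle (edgeR adjusted p = 0.000137) and by -1.03 ± 0.15 from 20 µg/mL (edgeR adjusted p = 1.13e-05), and the range over fits that left out 1 library was -0.96 to -0.72 for the first and -1.18 to -0.94 for the second. With Yijin-tang at 500 µg/mL its difference from vehicle was -0.25 (edgeR adjusted p = 0.263).

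GSTM3, a mu-class glutathione transferase, was a low-level member with 133 to 371 counts per library. GSTM3 (ENSG00000134202, chromosome 1, 109733932 to 109741038, minus strand) had 7.70, 6.61 and 7.53 CPM in vehicle libraries. The Soshiho-tang series was 11.02, 9.35 and 8.42 CPM at 20 µg/mL, 10.8, 9.31 and 8.59 CPM at 100 µg/mL and 9.07, 8.13 and 8.71 CPM at 500 µg/mL. All of these lay above vehicle. With Yijin-tang the series read 10.4, 7.95 and 10.1 CPM, then 9.80, 9.69 and 10.4 CPM, then 10.3, 8.29 and 11.02 CPM. Okbyeongpung-san gave 10.3 and 10.3 CPM at 20 µg/mL, 10.4 and 10.0 CPM at 100 µg/mL and 9.52 and 10.0 CPM at 500 µg/mL. Every extract library, those of Soyo-san included, lay above every vehicle library. GSTM3 rose in 8 of the 9 comparisons with vehicle, by 0.44 ± 0.12 with Yijin-tang (edgeR adjusted p = 0.014) and 0.42 ± 0.13 with Okbyeongpung-san (edgeR adjusted p = 0.0333) at 500 µg/mL. The one comparison that missed the threshold was Soshiho-tang at 500 µg/mL (0.25 ± 0.12, edgeR adjusted p = 0.128). The Okbyeongpung-san call was lost without any 1 of the 5 libraries compared (edgeR adjusted p up to 0.119). The Yijin-tang call was lost without vehicle replicate 2 or Yijin-tang 500 replicate 1 or 3 (edgeR adjusted p up to 0.0876).

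**Figure D3:**
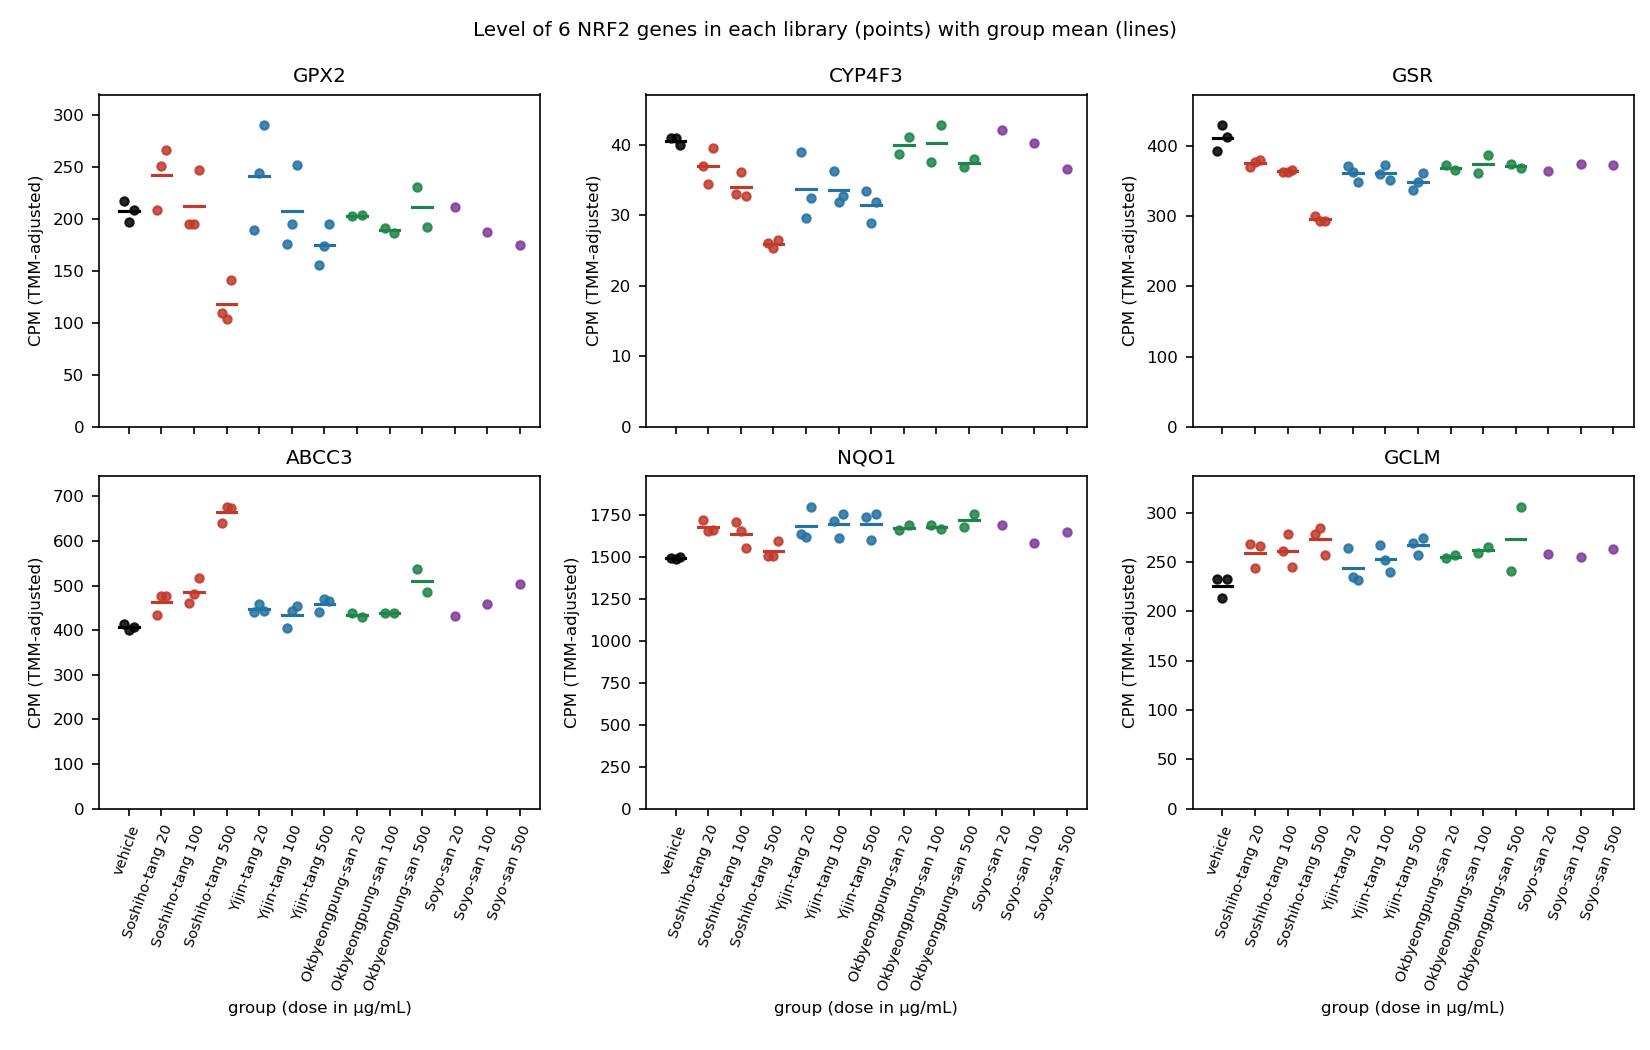
Level of GPX2, CYP4F3, GSR, ABCC3, NQO1 and GCLM in each library (points, CPM of TMM-adjusted totals, axis from 0) with the group mean (line), for vehicle and the 20, 100 and 500 µg/mL series of each extract. The 3 Soshiho-tang libraries at 500 µg/mL are the lowest for GPX2 (103 to 141 CPM), CYP4F3 (25.3 to 26.5 CPM) and GSR (293 to 300.4 CPM) and the highest for ABCC3 (641 to 677 CPM).

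Of the 4 thioredoxin and peroxide genes, 2 fell and 0 rose with Soshiho-tang at 500 against 20 µg/mL. Thioredoxin reductase TXNRD1 keeps thioredoxin reduced and averaged 1898 ± 51.1 CPM at 500 µg/mL and 2169 ± 67.3 CPM at 20 µg/mL (SD, n = 3 each), a difference of -0.19 ± 0.05 (edgeR adjusted p = 0.0112) that was lost without Soshiho-tang 20 replicate 1 (edgeR adjusted p = 0.0579). PRDX1, a peroxiredoxin that clears hydrogen peroxide, averaged 803 ± 20.1 CPM at 500 µg/mL and 984 ± 49.2 CPM at 20 µg/mL and fell by 0.29 ± 0.07 (edgeR adjusted p = 0.00449). Thioredoxin itself, TXN, differed by -0.03 and sulfiredoxin SRXN1, which repairs over-oxidised peroxiredoxin, by 0.00 in the same comparison. Against vehicle at 500 µg/mL, 0 of the 4 passed with Soshiho-tang (2 at an unadjusted edgeR p below 0.05). With Yijin-tang TXN rose by 0.29 and SRXN1 by 0.14, and of the 6 fits that left out 1 library TXN lost its call in 5, all but the one without Yijin-tang 500 replicate 2, and SRXN1 in 6. With the length and GC offset the TXN value was 0.12 (edgeR adjusted p = 0.18). TXN rose in 4 of the 9 comparisons with vehicle.

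Of the 4 genes of the pentose phosphate pathway and malic enzyme, grouped here under NADPH supply, TKT and ME1 changed. TKT encodes transketolase of the pentose phosphate pathway and averaged 1255 ± 59.4 CPM with Soshiho-tang at 500 µg/mL, 1607 ± 82.0 CPM at 20 µg/mL and 1607 ± 11.9 CPM in vehicle (SD, n = 3 each). It fell by 0.36 ± 0.08 in both comparisons (edgeR adjusted p = 0.00077 against vehicle and 0.00125 against 20 µg/mL). Malic enzyme ME1, whose promoter window is shown above, rose against vehicle by 0.20 with Soshiho-tang and 0.24 with Yijin-tang at 500 µg/mL and passed in 6 of the 9 comparisons. The Soshiho-tang call of ME1 was lost without vehicle replicate 3 or Soshiho-tang 500 replicate 2 (edgeR adjusted p up to 0.068). PGD and TALDO1, the dehydrogenase and transaldolase of the pentose phosphate pathway, passed in none of these comparisons, with PGD at -0.01 ± 0.07 and TALDO1 at 0.09 ± 0.07 against vehicle for Soshiho-tang at 500 µg/mL.

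Among the genes of quinone and carbonyl reduction, the quinone reductase NQO1 stood slightly above vehicle in every extract library. NQO1 (ENSG00000181019, chromosome 16, 69706996 to 69726951, minus strand) had 1493, 1488 and 1500.3 CPM in vehicle libraries. With Soshiho-tang it had 1724, 1655 and 1666 CPM at 20 µg/mL, 1714, 1657 and 1553 CPM at 100 µg/mL and 1508, 1509 and 1599.5 CPM at 500 µg/mL. Yijin-tang gave, in the same dose order, 1638, 1619 and 1803 CPM, then 1718, 1615 and 1756 CPM, then 1738, 1602 and 1758 CPM. Okbyeongpung-san gave 1663.5 and 1691 CPM at 20 µg/mL, 1695.5 and 1669 CPM at 100 µg/mL and 1681 and 1759.6 CPM at 500 µg/mL. The extract libraries began just above vehicle, and the 2 lowest of them were Soshiho-tang 500 replicates 1 and 2. NQO1 rose against vehicle by 0.19 ± 0.05 with Yijin-tang (edgeR adjusted p = 0.0133) and by 0.20 with Okbyeongpung-san (edgeR adjusted p = 0.0173) at 500 µg/mL, and by 0.17 with Soshiho-tang at 20 µg/mL. With Soshiho-tang at 500 µg/mL the difference was 0.04 ± 0.05 (edgeR adjusted p = 0.554), and against 20 µg/mL it was -0.13 ± 0.05 (edgeR adjusted p = 0.0729). The Yijin-tang call was lost without Yijin-tang 500 replicate 1 or 3 (edgeR adjusted p up to 0.0715), and the Okbyeongpung-san call without Okbyeongpung-san 500 replicate 3 (edgeR adjusted p = 0.0696).

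The carbonyl reductase CBR1 averaged 96.9 ± 2.79 CPM with Soshiho-tang at 500 µg/mL and 124 ± 6.90 CPM at 20 µg/mL (SD, n = 3 each) and fell by 0.35 ± 0.09 (edgeR adjusted p = 0.00496). PTGR1, which reduces the double bond of enals and prostaglandins, averaged 281 ± 6.91 CPM and 328 ± 1.48 CPM at those doses and fell by 0.22 ± 0.04 (edgeR adjusted p = 0.000462). The call of PTGR1 against vehicle (-0.12, edgeR adjusted p = 0.0381) was lost without any 1 of the 3 vehicle libraries or Soshiho-tang 500 replicate 1 or 2. That call was also lost without the filter on low counts (-0.10, edgeR adjusted p = 0.426). CBR3, at 5.202 CPM with Soshiho-tang at 500 µg/mL against 5.06 CPM in vehicle, passed in no comparison. CBR1 and CBR3 are neighbouring, similar genes, so some reads may have been shared between them.

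In hydrolysis and conjugation, EPHX1 and UGDH fell with Soshiho-tang at 500 against 20 µg/mL. EPHX1, the microsomal epoxide hydrolase, averaged 174 ± 12.2 CPM at 500 µg/mL and 222 ± 14.3 CPM at 20 µg/mL (SD, n = 3 each) and fell by 0.35 ± 0.09 (edgeR adjusted p = 0.00777), a call lost without Soshiho-tang 500 replicate 2 (edgeR adjusted p = 0.0542). Its call against vehicle (-0.24, edgeR adjusted p = 0.0487) was lost in 5 of 6 such fits, all but the one without Soshiho-tang 500 replicate 3. UGDH, which makes the UDP-glucuronic acid used by glucuronosyltransferases, averaged 463 ± 9.11 CPM and 559 ± 20.7 CPM at those doses and fell by 0.27 ± 0.07 (edgeR adjusted p = 0.00489). UGT1A6, a glucuronosyltransferase, was near 1.6 CPM in vehicle and passed in no comparison, and it shares exons with the other genes of its locus.

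The 3 exporters moved in different directions at 500 µg/mL of Soshiho-tang. ABCC3, which exports glucuronide and other organic anion conjugates, had the largest rise of the 33 genes in the comparisons with vehicle and between doses. ABCC3 (ENSG00000108846, chromosome 17, 50634777 to 50692252, plus strand) had 413, 401 and 408 CPM in vehicle libraries. In Soshiho-tang libraries the levels were 434, 476 and 478 CPM at 20 µg/mL, 460.4, 481 and 517 CPM at 100 µg/mL and 641, 677 and 675 CPM at 500 µg/mL. These last 3 libraries exceeded every other library of the study. With Yijin-tang the series read 439.7, 459 and 443 CPM, then 404, 443 and 455 CPM, then 439.9, 469.7 and 466.5 CPM. Okbyeongpung-san gave 438 and 429 CPM at 20 µg/mL, 439 and 438 CPM at 100 µg/mL and 536 and 486 CPM at 500 µg/mL. Only 1 extract library, Yijin-tang 100 replicate 1, lay within the vehicle range. ABCC3 rose with Soshiho-tang at 500 µg/mL by 0.71 ± 0.05 against vehicle (edgeR adjusted p = 5.29e-10) and by 0.52 ± 0.05 against 20 µg/mL (edgeR adjusted p = 9.37e-08). It also rose against vehicle by 0.33 ± 0.06 with Okbyeongpung-san (edgeR adjusted p = 0.00102) and by 0.17 with Yijin-tang (edgeR adjusted p = 0.0308) at 500 µg/mL, and the Yijin-tang call was lost without any 1 of 5 of the 6 libraries compared, all but Yijin-tang 500 replicate 1 (edgeR adjusted p up to 0.102). ABCC1, which exports glutathione conjugates, averaged 319.5 ± 13.8 CPM with Soshiho-tang at 500 µg/mL, 369 ± 4.67 CPM at 20 µg/mL and 396 ± 4.38 CPM in vehicle (SD, n = 3 each). It differed by -0.31 ± 0.06 from vehicle (edgeR adjusted p = 0.000232) and by -0.21 ± 0.06 from 20 µg/mL (edgeR adjusted p = 0.0126), and the second call was lost without Soshiho-tang 500 replicate 2 or 3 (edgeR adjusted p up to 0.0571). ABCC2, a related exporter, varied least of all members, by 1.06 times between its highest and lowest group means, and passed in no comparison.

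Of the 7 other NRF2 targets, CYP4F3 fell the most. It encodes an omega-hydroxylase that inactivates leukotriene B4. CYP4F3 (ENSG00000186529, chromosome 19, 15640897 to 15662825, plus strand) had 40.9, 40.9 and 39.9 CPM in vehicle libraries. The Soshiho-tang series was 37.0, 34.5 and 39.5 CPM at 20 µg/mL, 33.1, 36.1 and 32.7 CPM at 100 µg/mL and 26.0, 25.3 and 26.5 CPM at 500 µg/mL. The libraries at 500 µg/mL were the lowest of the study. Yijin-tang gave, in the same dose order, 39.0, 29.6 and 32.5 CPM, then 36.2, 31.8 and 32.7 CPM, then 33.4, 28.95 and 31.8 CPM. Okbyeongpung-san gave 38.7 and 41.1 CPM at 20 µg/mL, 37.5 and 42.8 CPM at 100 µg/mL and 36.8 and 38.03 CPM at 500 µg/mL. The Soshiho-tang and Yijin-tang libraries all lay below vehicle, and those of Okbyeongpung-san overlapped it at 20 and 100 µg/mL. CYP4F3 fell with Soshiho-tang at 500 µg/mL, differing by -0.65 ± 0.08 from vehicle (edgeR adjusted p = 1.94e-06) and by -0.51 ± 0.08 from 20 µg/mL (edgeR adjusted p = 5.59e-05), and with Yijin-tang at 500 µg/mL it differed by -0.37 ± 0.08 from vehicle (edgeR adjusted p = 0.00327). Its near copy CYP4F11 averaged 74.1 ± 3.32 CPM with Soshiho-tang at 500 µg/mL and 88.3 ± 2.07 CPM in vehicle (SD, n = 3 each) and fell by 0.25 (edgeR adjusted p = 0.00267), and the counting could have divided reads between the pair.

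The nuclear receptor NR0B1 rose in 6 of the 9 comparisons with vehicle, by 0.21, 0.27 and 0.37 with Soshiho-tang, Yijin-tang and Okbyeongpung-san at 500 µg/mL, and these calls were lost in 5 of 6, 4 of 6 and 1 of 5 fits that left out 1 library. The exceptions were the fits without vehicle replicate 2 (Soshiho-tang) and without vehicle replicate 2 or Yijin-tang 500 replicate 2, and the 1 loss with Okbyeongpung-san was without its replicate 2 (0.23, edgeR adjusted p = 0.161). OSGIN1, an oxidative stress response gene linked to growth inhibition, averaged 90.0 ± 6.78 CPM with Soshiho-tang at 500 µg/mL and 111 ± 3.85 CPM in vehicle (SD, n = 3 each), a difference of -0.31 (edgeR adjusted p = 0.0225) lost without vehicle replicate 1 or 2 or Soshiho-tang 500 replicate 2 or 3. TRIM16, a ubiquitin ligase of the tripartite motif family, fell by 0.16 at 500 against 20 µg/mL of Soshiho-tang (edgeR adjusted p = 0.0457), and that call was lost in 5 of 6 fits that left out 1 library, all but the one without Soshiho-tang 500 replicate 2. Without the filter on low counts the TRIM16 call was lost too (edgeR adjusted p = 0.0897). In the same comparison CYP4F11 fell by 0.20 (edgeR adjusted p = 0.0197), lost in 4 of 6. TRIM16L, a near copy of TRIM16, and PIR, an iron-binding nuclear protein, passed in no comparison of an extract with vehicle or with its own 20 µg/mL dose, and the same was true of PGD, TALDO1, CBR3, UGT1A6 and ABCC2.

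**Figure D4:**
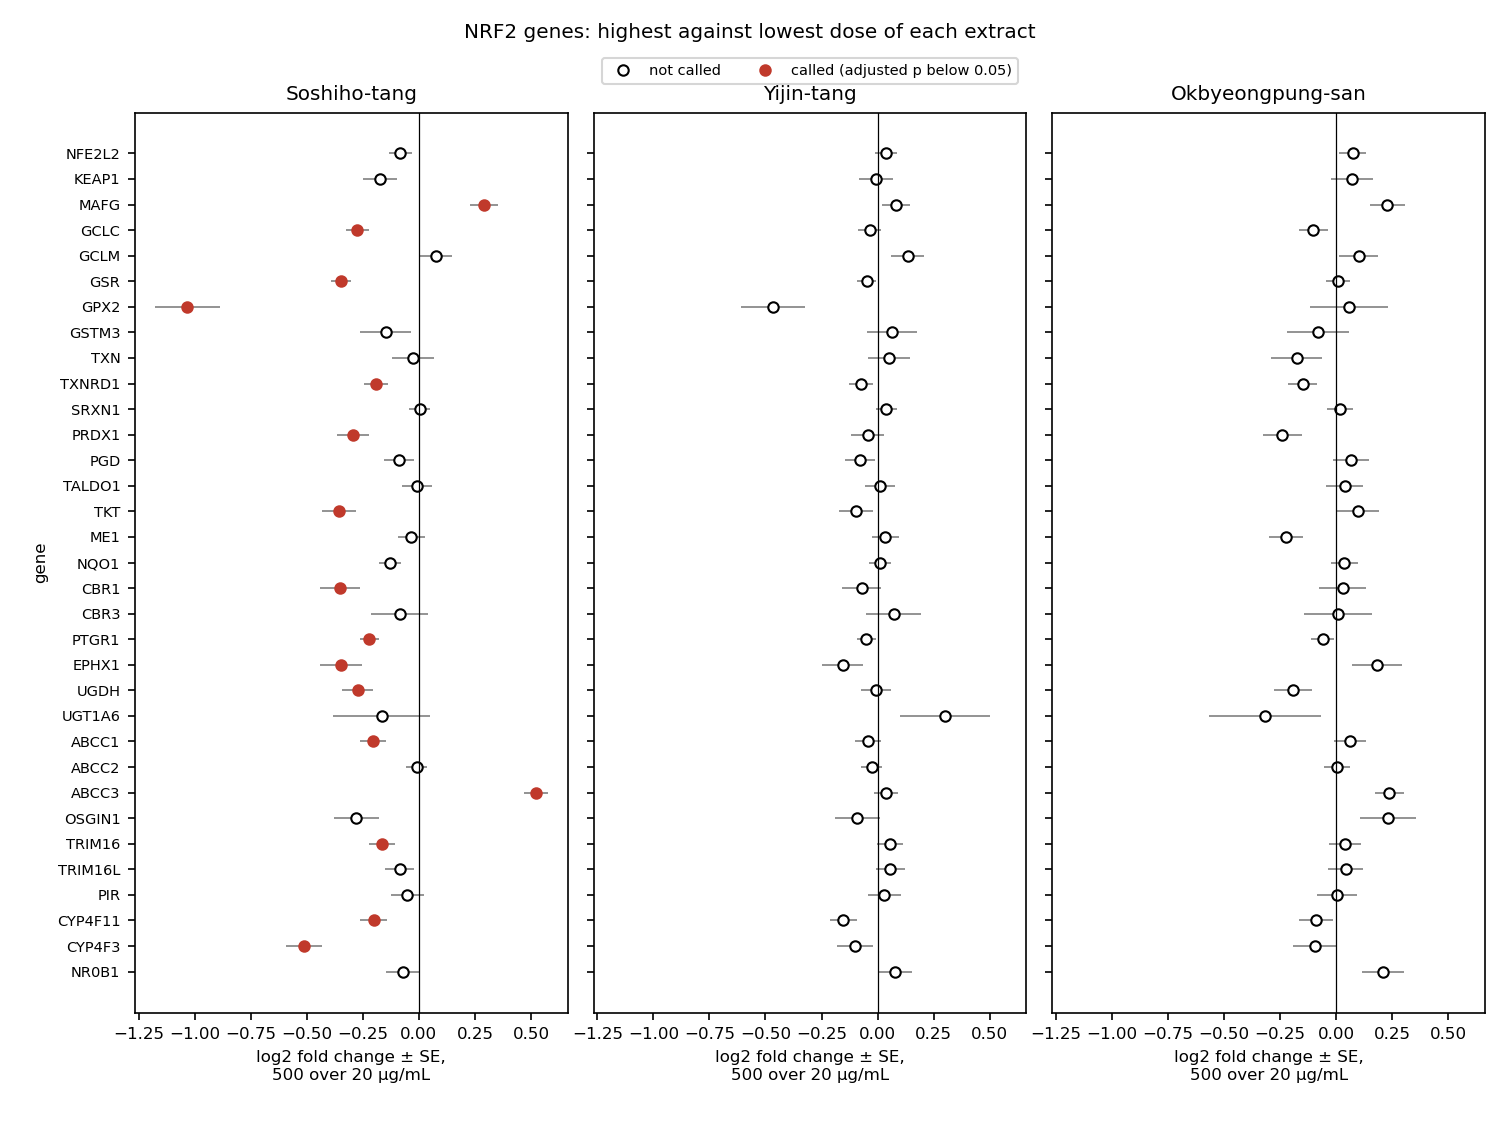
Log2 fold change at 500 against 20 µg/mL (points, with standard error bars) of each of the 33 genes in Soshiho-tang, Yijin-tang and Okbyeongpung-san (panels), with filled points where the edgeR adjusted p was below 0.05. In Soshiho-tang 29 of 33 values are below 0, led by GPX2 at -1.03, and ABCC3 stands apart at 0.52, while 0 genes are filled in the other panels.

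The dose differences of the extracts were then compared with each other in the same fit. The dose difference of Soshiho-tang was below that of Yijin-tang in 30 of 33 members, with a median of -0.16, and 3 members passed, beside 4.02% of all genes. These were GSR (-0.30 ± 0.06, edgeR adjusted p = 0.00327), ABCC3 (0.49 ± 0.08, edgeR adjusted p = 0.000206) and CYP4F3 (-0.41 ± 0.11, edgeR adjusted p = 0.0403). GPX2 had the widest difference (-0.57) and did not pass (edgeR adjusted p = 0.137). Against Okbyeongpung-san 6 members passed, beside 7.07% of all genes, namely GSR (-0.36 ± 0.07), GPX2 (-1.09 ± 0.23, edgeR adjusted p = 0.00366), TKT (-0.45 ± 0.12), EPHX1 (-0.53 ± 0.14), ABCC3 (0.29 ± 0.08) and CYP4F3 (-0.42 ± 0.13). GSR passed against both extracts in every fit that left out 1 library, GPX2 did so against Okbyeongpung-san and ABCC3 against Yijin-tang. CYP4F3 was lost in 9 of 12 such fits against Yijin-tang and 9 of 10 against Okbyeongpung-san, and against Okbyeongpung-san ABCC3 was lost in 7, EPHX1 in 6 and TKT in 4 of 10. The count of 3 was 5 without Yijin-tang 20 replicate 3. The count of 6 was 3 without Okbyeongpung-san 500 replicate 2, Okbyeongpung-san 20 replicate 2 or Soshiho-tang 20 replicate 2, and 2 without Okbyeongpung-san 20 replicate 3 or Soshiho-tang 500 replicate 2. Between Yijin-tang and Okbyeongpung-san 0 members passed in edgeR (4 at an unadjusted p below 0.05) and in DESeq2, beside 0.160% of all genes, and 6 passed without Okbyeongpung-san 500 replicate 3. Without the Okbyeongpung-san libraries of letter D the counts were 5 for Soshiho-tang and Yijin-tang, 6 for Soshiho-tang and Okbyeongpung-san and 2 for Yijin-tang and Okbyeongpung-san.

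At 500 µg/mL most members that differed between extracts were lower with Soshiho-tang. Against Yijin-tang 12 members passed, 2 higher (MAFG at 0.21 and ABCC3 at 0.53) and 10 lower, beside 12.6% of all genes (6.17% higher, 6.45% lower). The lowest was GPX2 (-0.57 ± 0.15, edgeR adjusted p = 0.0101), with GCLC at -0.23, GSR at -0.24, PRDX1 at -0.25, TKT at -0.26, CBR1 at -0.26 and CYP4F3 at -0.27. Against Okbyeongpung-san 13 passed, 1 higher (ABCC3 at 0.38) and 12 lower, beside 18.7% of all genes (9.14% higher, 9.57% lower). GPX2 was again the lowest (-0.84 ± 0.16, edgeR adjusted p = 0.000606), followed by CYP4F3 at -0.53 and TKT at -0.41, and KEAP1 (-0.26, edgeR adjusted p = 0.0304) and NQO1 (-0.16, edgeR adjusted p = 0.0447) were among the 12. The count against Yijin-tang was 6 without Soshiho-tang 500 replicate 1, 4 without its replicate 2, and 5 without Yijin-tang 500 replicate 1 or 3. The count against Okbyeongpung-san was 7 without Okbyeongpung-san 500 replicate 2 or Soshiho-tang 500 replicate 2. Between Yijin-tang and Okbyeongpung-san edgeR called 0 (6 at an unadjusted p below 0.05; DESeq2 called 1, ME1), beside 2.29% of all genes, and 7 without Okbyeongpung-san 500 replicate 3. Without the Okbyeongpung-san libraries of letter D it called 5 between these extracts and 14 between Soshiho-tang and Okbyeongpung-san.

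Most called genes of the same pathway outside the 33 were higher against vehicle, at 20 µg/mL as at 500 µg/mL. Of 21 further NRF2 targets tested, 10 rose and 2 fell with Soshiho-tang at 500 µg/mL against vehicle (57.1%, beside 33.1% of all genes; median 0.16). With Yijin-tang 6 rose and 0 fell (28.6%, beside 15.8%; median 0.16), and with Okbyeongpung-san 9 rose and 0 fell (42.9%, beside 14.9%; median 0.18). At 20 µg/mL against vehicle 7 rose with Soshiho-tang, 8 with Yijin-tang and 6 with Okbyeongpung-san, and 0 fell. These were 33.3, 38.1 and 28.6%, beside 8.04, 10.2 and 10.2% of all genes, with medians of 0.16, 0.13 and 0.12. All comparisons with vehicle share its 3 libraries. At 500 against 20 µg/mL 1 rose with Yijin-tang (4.8%, beside 0.710%) and 2 with Okbyeongpung-san (9.5%, beside 1.61%), and 0 fell. The medians there were 0.0024 and 0.02. Haem oxygenase HMOX1, which breaks down haem, averaged 248 ± 4.12 CPM with Soshiho-tang at 500 µg/mL, 216 ± 1.20 CPM with Yijin-tang (SD, n = 3 each), 271 ± 28.96 CPM with Okbyeongpung-san (n = 2) and 145 ± 1.41 CPM in vehicle (n = 3). It rose by 0.77, 0.57 and 0.90 against vehicle, and against 20 µg/mL by 0.62 with Soshiho-tang (edgeR adjusted p = 3.15e-08), 0.38 with Yijin-tang (edgeR adjusted p = 0.000689) and 0.84 with Okbyeongpung-san (edgeR adjusted p = 2.74e-07). In the dose comparison of Soshiho-tang 5 of the 21 rose and 4 fell (42.9%, beside 20.6% of all genes), among them the ferritin light chain FTL at -0.30 and the aldo-keto reductases AKR1C1 and AKR1B10, each at -0.27. The ferritin chain also fell against vehicle (-0.34).

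Genes for cystine uptake and glutathione supply leaned upward with Soshiho-tang at 500 µg/mL, with 6 of 9 higher and 0 lower against vehicle (66.7%, beside 33.1% of all genes; median 0.31), and 4 higher and 1 lower against 20 µg/mL (55.6%, beside 20.6%). CHAC1, which degrades glutathione, rose by 1.59 against vehicle and by 1.95 against 20 µg/mL. CBS, the first enzyme of transsulfuration, rose by 1.38 and 1.39, and the cystine carrier SLC7A11 by 0.55 and 0.35. CTH, the second enzyme of transsulfuration, fell by 0.34 against 20 µg/mL. Among 10 partners and turnover factors of NRF2, 3 rose and 2 fell against vehicle (50%, beside 33.1%). SQSTM1, the autophagy adaptor that binds KEAP1, rose by 0.73 against vehicle and 0.68 against 20 µg/mL, while CUL3 differed by -0.28 and -0.17. The widest differences in this list were downward, with a lowest value of -2.19 against vehicle and -0.92 against 20 µg/mL. Of 14 general antioxidant genes 3 rose and 1 fell against vehicle (28.6%, beside 33.1%), and 0 rose and 3 fell against 20 µg/mL (21.4%, beside 20.6%), including glutathione peroxidase GPX1 at -0.30, so the share called was near that of all genes in both comparisons. Of 8 targets of the aryl hydrocarbon receptor, 3 of which (NFE2L2, NQO1 and UGT1A6) are also members, 4 rose at 500 against 20 µg/mL with Yijin-tang (50%, beside 0.710% of all genes) and 4 with Okbyeongpung-san (50%, beside 1.61%), led by CYP1A1 at 1.88 and 1.77. With Soshiho-tang 1 rose in that comparison (TIPARP at 0.23, 12.5% beside 20.6%), and CYP1A1 differed by 0.09. Against vehicle at 20 µg/mL, 4 of the 8 rose and 0 fell with Soshiho-tang (50%, beside 8.04%). With Yijin-tang 2 rose and 0 fell (25%, beside 10.2%), and with Okbyeongpung-san 0 rose and 1 fell (12.5%, beside 10.2%). The highest values of the list at that dose were 1.81, 0.90 and 0.42 in that order. At 500 µg/mL against vehicle they were 1.90, 2.78 and 2.19.

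Soyo-san had 1 library per dose and was not tested. In all 3 of its libraries 15 members lay above every vehicle library and 3 (NFE2L2, GSR and ABCC1) below every one. The share of all genes that did so was not counted, so these counts do not show a trait of the members. GSR had 365 CPM at 20 µg/mL, 375 CPM at 100 µg/mL and 373 CPM at 500 µg/mL, and GPX2 had 211, 187 and 175 CPM in that order. ABCC3 had 433, 458 and 504 CPM, CYP4F3 had 42.0, 40.2 and 36.6 CPM, and NQO1 had 1694.5, 1587 and 1650.1 CPM. GCLM had 258, 255 and 263.5 CPM, GSTM3 had 8.47, 8.92 and 9.46 CPM, NFE2L2 had 113, 119 and 123 CPM, and KEAP1 had 73.6, 75.1 and 79.9 CPM. GPX2 was lowest and ABCC3 highest at 500 µg/mL, but no replicate gives the spread. All 3 libraries carried the title letter D and the vehicle libraries the letter E, so extract and letter cannot be told apart here.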

How the data were processed

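RNA-seq was done on 30 libraries of A549 cells (directional kit, paired-end reads of 100 bp, per the labels' protocols). The authors deposited RSEM expected counts per Ensembl gene, and the submitters' processing notes name FastQC 0.11.9, Trim Galore 0.6.5, STAR 2.7.3a, RSEM 1.3.3 and the builds hg38 and GRCh38. Which annotation release was used, and whether counting used strand, is not given in the sources used here. Between 9.09 and 11.6% of values were not whole, and all were rounded to whole numbers. A further 30 columns of the table held no values and were not used. Symbols and coordinates came from GENCODE 29 (57055 of 60675 identifiers matched) and promoters from RefSeq.

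The 27 libraries of the 10 groups with 2 or more libraries were fitted together in edgeR 4.0.16 (R 4.3.3) with TMM factors, filterByExpr and the quasi-likelihood test, without block or batch term, in 21 comparisons. P-values were adjusted by Benjamini-Hochberg over 17459 genes. The fit was tested on simulated counts drawn with the same dispersion for every gene and group. That test cannot show how the fit fares with groups of unequal spread, as here. The members, the other gene lists and the tests were chosen with earlier results of these data known. Values in every library are given for NFE2L2, KEAP1, NQO1 and GCLM and for members called at an absolute log2 fold change of at least 0.4 in a 500 µg/mL comparison with vehicle or 20 µg/mL, and the others by mean or count. In the further lists, ADH7 and SOD2 did not pass the filter on low counts.

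Alternatives were RLE factors, no filter, a replicate block, a term for the title letter, a length and GC offset, totals without mitochondrial genes, leaving out the 3 Okbyeongpung-san libraries of letter D, DESeq2 1.42.0, fits of only the groups compared, and leaving out each library. Replicate numbers were taken to pair samples where every correlation of same-numbered deviations from the group means exceeded 0.1. Only Yijin-tang at 100 against 20 µg/mL met this rule, with 3 correlations of 0.121 to 0.304. For Yijin-tang at 500 against 20 µg/mL replicates 1, 2 and 3 had 0.145, 0.157 and 0.008. For Soshiho-tang at 100 against 20 µg/mL they had 0.19, -0.082 and 0.196. What the numbers mark is not in the labels.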

Additional observations from a re-analysis of the deposited data

Results flagged for a closer look

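The dose difference (500 minus 20 µg/mL) of 6 members was unlike in Soshiho-tang and in another extract, by a test of that difference in edgeR. Soshiho-tang minus Yijin-tang was -0.30 for GSR, 0.49 for ABCC3 and -0.41 for CYP4F3. Soshiho-tang minus Okbyeongpung-san was -0.36 for GSR, -1.09 for GPX2, -0.45 for TKT, -0.53 for EPHX1, 0.29 for ABCC3 and -0.42 for CYP4F3. The Okbyeongpung-san libraries at 500 µg/mL differed in mitochondrial share (9.89% in replicate 2, 6.73% in replicate 3). Without either of these libraries GSR and GPX2 still passed against Okbyeongpung-san, TKT, EPHX1 and CYP4F3 did not pass without replicate 2, and ABCC3 and CYP4F3 did not pass without replicate 3. In the Soyo-san libraries, which enter no comparison, 15 members lay above every vehicle library in all 3, and this was not tested. The share of all genes that did so was not counted.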

How the results depend on the processing

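None of the 62 called log2 fold changes refitted changed direction. They are the calls at 500 µg/mL against vehicle and against 20 µg/mL and those in the dose differences, and calls at lower doses and between extracts at 500 µg/mL were refitted as counts only. The median over the members at 500 against 20 µg/mL did change sign with the length and GC offset, to 0.0039 for Yijin-tang (-0.0063 in the fit reported) and -0.03 for Okbyeongpung-san (0.03), and also in 2 fits that left out a Yijin-tang library and 1 that left out an Okbyeongpung-san library. Of 558 refits under a whole-data alternative 517 held their call, and of 405 that left out 1 library 266 did; the rest lost it. Counts of members called that moved by more than 1.5 times are given here, and the cause was not tested. They stand without the share of all genes called in the same refit, so they do not show a change particular to the members. With only the groups compared in the fit, the counts against vehicle were 0 for Okbyeongpung-san at 500 µg/mL, 7 and 20 for Soshiho-tang and Okbyeongpung-san at 100 µg/mL, and 12, 1 and 23 for Soshiho-tang, Yijin-tang and Okbyeongpung-san at 20 µg/mL. The same fit gave 4 between Soshiho-tang and Okbyeongpung-san at 500 µg/mL and 2 for their dose difference. Without the filter on low counts there were 1 and 1 at 500 against 20 µg/mL of Yijin-tang and Okbyeongpung-san, 10 for Soshiho-tang at 20 µg/mL against vehicle, and 2 and 2 between Yijin-tang and Okbyeongpung-san (at 500 µg/mL and in dose difference). With the replicate block there was 1 at 500 against 20 µg/mL of Yijin-tang (GPX2, -0.46, adjusted p = 0.0442), 1 of Okbyeongpung-san (ABCC3, 0.24, adjusted p = 0.025), 8 and 11 for Soshiho-tang and Okbyeongpung-san at 100 µg/mL against vehicle, 1 between Yijin-tang and Okbyeongpung-san at 500 µg/mL and 5 for the dose difference of Soshiho-tang and Yijin-tang. The block changed no call in the comparison that met the pairing rule. The others did not meet it, which does not show that their same-numbered samples were unrelated. With a term for the title letter there were 7, 2 and 3 for Soshiho-tang and Okbyeongpung-san at 100 µg/mL and Okbyeongpung-san at 20 µg/mL against vehicle, and 2 between Yijin-tang and Okbyeongpung-san at 500 µg/mL. With the length and GC offset there were 2 at 500 against 20 µg/mL of Okbyeongpung-san, 8, 8 and 8 for Soshiho-tang at 100 and 20 µg/mL and Okbyeongpung-san at 100 µg/mL against vehicle, 1 between Yijin-tang and Okbyeongpung-san at 500 µg/mL and 8 for the dose difference of Soshiho-tang and Yijin-tang. Without the 3 Okbyeongpung-san libraries of letter D, a setting chosen after seeing the data like that of the mitochondrial totals, there were 3 at 500 against 20 µg/mL of Okbyeongpung-san, 1 and 1 at 100 and 20 µg/mL against vehicle, 5 between Yijin-tang and Okbyeongpung-san at 500 µg/mL, and 5 and 2 for the dose differences of Soshiho-tang and of Okbyeongpung-san with Yijin-tang. DESeq2 gave 1 at 500 against 20 µg/mL of Okbyeongpung-san, 9 and 9 for Soshiho-tang and Okbyeongpung-san at 100 µg/mL against vehicle, 1 between Yijin-tang and Okbyeongpung-san at 500 µg/mL and 5 for the dose difference of Soshiho-tang and Yijin-tang.

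Leaving out 1 library gave 10 to 14 members for Soshiho-tang, 3 to 10 for Yijin-tang and 3 to 10 for Okbyeongpung-san at 500 µg/mL against vehicle, 1 to 9, 3 to 11 and 0 to 3 at 100 µg/mL, and 0 to 2, 0 to 5 and 0 to 4 at 20 µg/mL. At 500 against 20 µg/mL the ranges were 13 to 16, 0 to 1 and 0 to 10. Between extracts at 500 µg/mL they were 4 to 9 (Soshiho-tang and Yijin-tang), 7 to 15 (Soshiho-tang and Okbyeongpung-san) and 0 to 7 (Yijin-tang and Okbyeongpung-san), and for the dose differences 2 to 5, 2 to 8 and 0 to 6 in that order. A group left with 1 library was assumed to vary like the others. The median over the members stayed between -0.19 and -0.11 for Soshiho-tang at 500 against 20 µg/mL in all these fits. Groups of 2 or 3 libraries limit what can be seen, and levels near 1.6 CPM, as for UGT1A6, limit it further.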
